A study of Mus musculus with 10 samples.

Results

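Cyclin-dependent kinase inhibitors and the p53 pathway were examined in macrophages sorted from drug-resistant melanomas of Ccr2 knockout and control mice. The set holds 10 genes, named by symbol, of 55359 gene identifiers in the count files. They are the INK4 family (Cdkn2a, Cdkn2b, Cdkn2c and Cdkn2d), the CIP/KIP family (Cdkn1a, Cdkn1b and Cdkn1c), Trp53, Mdm2 and Rb1. Cdkn2a was chosen by its rise in this same contrast, and the other 9 were added by role, with the results known, to ask whether its rise was shared. All differences of these 10 between the genotypes are therefore descriptions, and the difference of Cdkn2a is given with no test as support.

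The knockout mice were homozygous for an RFP allele of Ccr2 (Ccr2RFP/RFP) and the control mice heterozygous for it (Ccr2RFP/+), so controls also carry 1 altered allele. Each genotype gave 5 libraries, all labelled male, from tumours in the resistant or rebound state under daily Braf and Mek inhibitors. Cells were sorted on F4/80, a surface marker of mouse macrophages, and polyadenylated RNA was sequenced in bulk. The labels do not say whether each library came from a separate mouse, so every p-value reflects variation among these libraries, some of which may be technical. The sources used here do not state the ages of the mice, the melanoma line or the state of Cdkn2a in its cells.

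Progress through the G1 phase of the cell cycle depends on cyclin-dependent kinases that phosphorylate the retinoblastoma protein Rb1 and so release E2F transcription factors. INK4 proteins bind and block the kinases Cdk4 and Cdk6, and CIP/KIP proteins bind a wider range of cyclin and kinase complexes. Cdkn2a makes a pair of unrelated proteins from separate first exons, p16Ink4a, which acts on the Rb1 pathway, and p19Arf, which restrains Mdm2 and so stabilises p53. In mice, p16Ink4a is known as a marker of senescent cells, and macrophages can also express it without being senescent.

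The counts give 1 value for the whole Cdkn2a gene, so its transcripts for p16Ink4a and p19Arf cannot be told apart. The promoter windows are shown because each first exon has its own promoter, and because Cdkn2b, whose product is p15Ink4b, lies next to Cdkn2a on chromosome 4. Each window runs from 250 bases before to 50 bases after a transcription start, 5′ to 3′ on the minus strand of GRCm38.p6, from RefSeq. Capitals mark GC boxes (GGGCGG) and E2F motifs (TTTCCCGC, TTTGGCGC or TTTCGCGC), searched on both strands. No marked match overlaps another.
Cdkn2a upstream start (p19Arf), chr4:89294570-89294869: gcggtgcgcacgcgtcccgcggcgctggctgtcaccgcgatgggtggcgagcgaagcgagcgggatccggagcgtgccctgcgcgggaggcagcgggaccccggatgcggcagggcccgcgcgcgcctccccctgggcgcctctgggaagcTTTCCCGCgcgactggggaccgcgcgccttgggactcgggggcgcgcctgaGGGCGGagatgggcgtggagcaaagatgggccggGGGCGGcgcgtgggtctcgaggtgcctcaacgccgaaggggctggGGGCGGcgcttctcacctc
Cdkn2a downstream start (p16Ink4a), chr4:89282143-89282442: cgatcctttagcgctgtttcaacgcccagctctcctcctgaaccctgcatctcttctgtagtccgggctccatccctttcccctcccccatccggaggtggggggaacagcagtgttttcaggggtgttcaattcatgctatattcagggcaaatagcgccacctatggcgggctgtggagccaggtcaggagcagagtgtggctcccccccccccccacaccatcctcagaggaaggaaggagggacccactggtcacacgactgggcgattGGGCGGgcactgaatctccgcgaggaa
Cdkn2b start, chr4:89310983-89311282: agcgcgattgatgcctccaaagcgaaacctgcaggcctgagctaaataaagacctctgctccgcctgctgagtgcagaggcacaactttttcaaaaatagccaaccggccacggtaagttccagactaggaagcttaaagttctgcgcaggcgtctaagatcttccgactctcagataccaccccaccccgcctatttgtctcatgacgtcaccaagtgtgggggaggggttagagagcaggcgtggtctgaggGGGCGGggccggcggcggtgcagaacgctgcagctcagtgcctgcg
The p19Arf window is 77% G and C, against 60.3% in the p16Ink4a window, 57.7% in the Cdkn2b window and a median of 52.7% over 32851 windows. It holds 3 GC boxes and 1 E2F motif, while the p16Ink4a and Cdkn2b windows hold 1 GC box each and 0 E2F motifs. A GC box was found in 35.7% of all windows and an E2F motif in 1.84%. Windows were found for 8 of the 10 genes, and not for Cdkn1c and Rb1.

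Cdkn1a encodes p21, through which p53 halts the cell cycle, and its upstream start is shown for the match to p53 DNA motifs it contains. Capitals mark exact matches to the p53 decamer motif, the unit that p53 response elements repeat, searched on both strands. The motif is RRRCWWGYYY, where R is A or G, W is A or T and Y is C or T. The window is on the plus strand of GRCm38.p6.
Cdkn1a upstream start, chr17:29090729-29091028: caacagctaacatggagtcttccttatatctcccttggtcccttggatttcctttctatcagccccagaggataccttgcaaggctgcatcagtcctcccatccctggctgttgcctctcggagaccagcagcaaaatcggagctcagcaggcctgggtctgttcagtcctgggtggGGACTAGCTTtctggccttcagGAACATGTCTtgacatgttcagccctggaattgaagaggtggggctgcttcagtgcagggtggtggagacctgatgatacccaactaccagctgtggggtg
This window holds 2 exact decamers, which do not touch each other. The second is followed directly by tgacatgttc, which departs from the motif only at its first base and is therefore not marked. The decamer was also found 1 time each in the windows of Cdkn2d, Trp53 and Mdm2 and 0 times in the other windows of the set, and it was found in 8.36% of all windows.

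Depth was even, with 34639808 to 43360206 counts in genes per library. Ccr2 (ENSMUSG00000049103) checked the labels, at 4.72 ± 1.41 CPM (read counts scaled to the total of the library) in knockout and 119 ± 45.9 CPM in control libraries (SD, n = 5 each, exact two-sided permutation p = 0.00794, the smallest that 252 arrangements allow). The closest libraries were the control pairs 1 with 2 and 3 with 4 (median chi-square per gene 2.75 and 2.66, next 5.71, sampling noise 0.455). That next pair was knockout library 2 with control library 3. Of 14374 genes tested with edgeR, 203 passed an adjusted p of 0.05, or 1.41%, with 0.87% higher and 0.543% lower in knockout libraries. All 10 members passed the filter on low counts.

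Cdkn2a (ENSMUSG00000044303) was low in control macrophages and higher in every knockout library. The knockout libraries 1 to 5 had 4.44, 6.50, 3.12, 5.97 and 8.09 CPM, and the control libraries 0.823, 0.939, 1.09, 1.09 and 0.389 CPM. The lowest knockout library therefore stood above the highest control library, and the groups did not overlap. The mean was 5.62 ± 1.91 CPM in knockout and 0.865 ± 0.289 CPM in control libraries (SD, n = 5 each). The log2 fold change was 2.70 with a standard error of 0.34, or 6.48-fold with a 95% interval of 3.86 to 10.9. These levels rest on 123 to 310 reads in knockout libraries and 16 to 47 in control libraries. On the opposite strand 1 read was counted over all 10 libraries.

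Cdkn2a was chosen by its rise, so the adjusted p-values that follow are descriptions and no support for that rise. The edgeR adjusted p of Cdkn2a, which brought it into the set, was 0.00422. With each close control pair summed into 1 library it was 0.0613 at a log2 fold change of 2.82, and without knockout libraries 4 and 5 it was 0.0420 at 2.45. In bulk RNA, fewer cells expressing a gene and less RNA per cell cannot be told apart.

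Markers of several cell types also differed between these libraries. Macrophage markers such as Csf1r and Adgre1 summed to 29972 to 38731 CPM in knockout and 28354 to 33944 CPM in control libraries, with 1 of 10 higher and 0 lower past the threshold. Of 10 resident-like macrophage markers 5 were higher and 0 lower, with sums of 3338 to 5821 CPM in knockout and 2090 to 3512 CPM in control libraries. Of 10 classical monocyte markers, Ccr2 among them, 6 were lower and 0 higher (1675 to 4107 CPM in knockout and 2545 to 6273 CPM in control libraries). Dendritic cell markers summed to 6.08 to 14.5 CPM in knockout and 13.7 to 39.3 CPM in control libraries, with 1 of 9 lower. Endothelial markers summed to 19.8 to 31.7 CPM in knockout and 32.4 to 84.9 CPM in control libraries, which did not overlap, with 0 of 5 tested genes past the threshold. The part of these shifts in the Cdkn2a difference was not tested.

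The sums of the other marker lists overlapped between the genotypes, as did those above apart from the endothelial list. The melanoma list summed to 44.9 to 76.7 CPM in knockout and 58.8 to 76.7 CPM in control libraries, with Trpm1 the 1 of 5 tested genes that was higher, and Mlana, Tyr and Slc45a2 had 0 counts in all 5 knockout libraries. T and NK cell markers summed to 88.5 to 229 CPM in knockout and 77.7 to 177 CPM in control libraries, where Cd4, which mouse macrophages can also express, was the 1 of 9 tested genes that rose. Neutrophil markers summed to 115 to 213 CPM in knockout and 162 to 549.5 CPM in control libraries. For B and plasma cells the sums were 16.4 to 61.8 CPM in knockout and 41.3 to 74.5 CPM in control libraries. Fibroblast markers summed to 260 to 3445 CPM in knockout and 647 to 2188 CPM in control libraries, and keratinocyte markers to 1.002 to 3.24 CPM in knockout and 1.11 to 10.01 CPM in control libraries. In these 4 lists 0 genes passed.

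**Figure D1:**
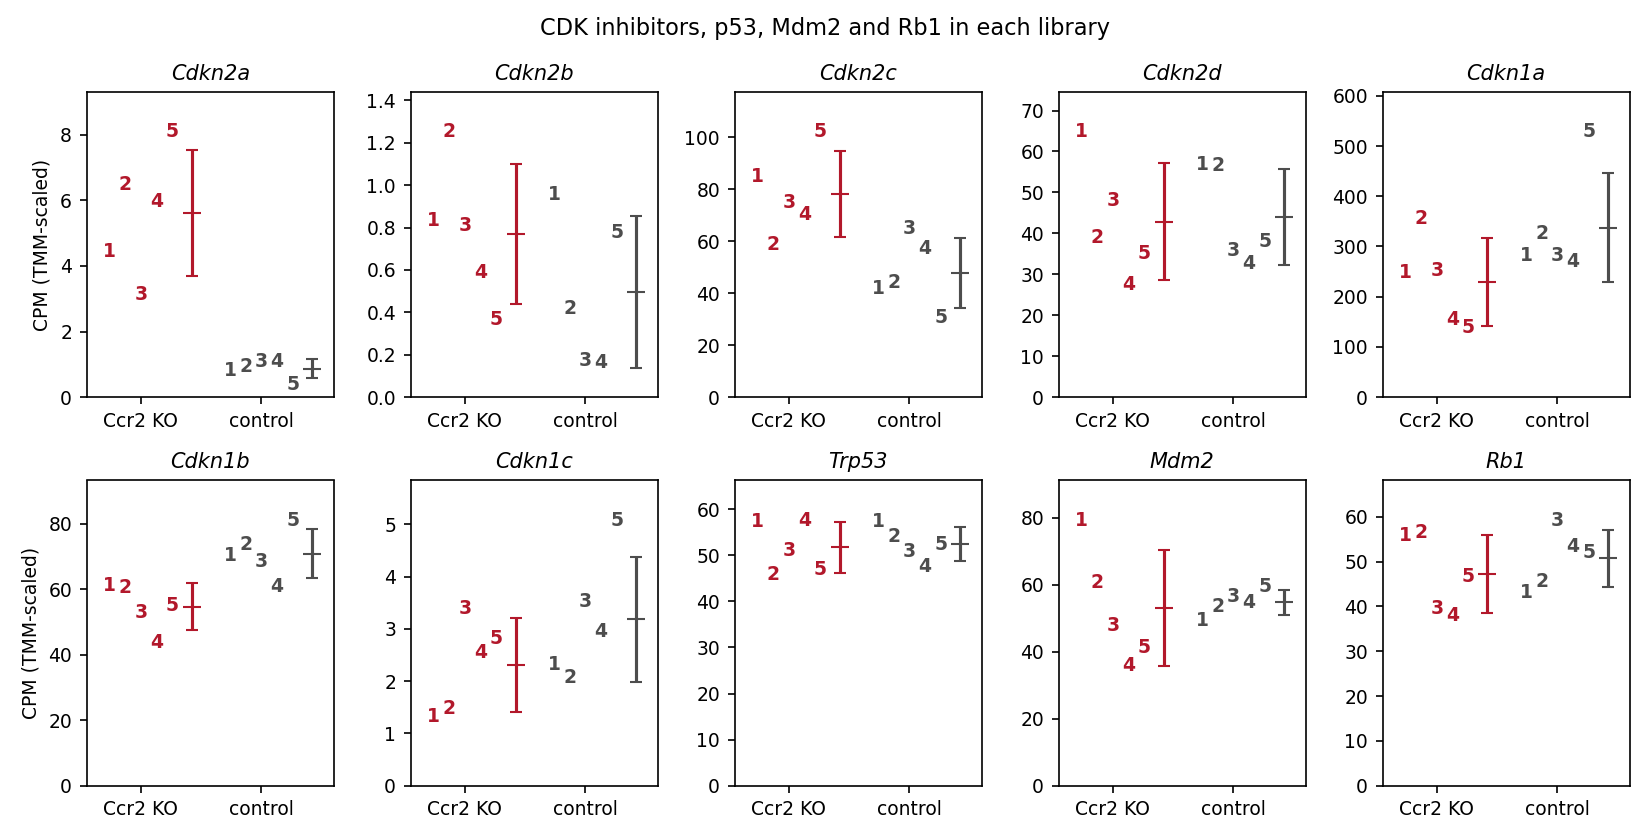
CPM of each of the 10 genes in every library, with knockout libraries in red, control libraries in grey, digits for library numbers and bars for mean ± SD over 5 libraries. Cdkn2a is the panel where the groups do not overlap, at 3.12 to 8.09 CPM in knockout and 0.389 to 1.09 CPM in control libraries.

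None of the other 9 genes passed the threshold with edgeR. The count was 0 of 9, beside 1.41% of all genes. At an unadjusted p under 0.05 there were 2 of 9, beside 15.3% of all genes. They were Cdkn2c, higher in knockout libraries as were 8.05% of all genes, and Cdkn1b, lower as were 7.28%. DESeq2 called 1 of 9, Cdkn2c, beside 4.55% of all genes, and limma-voom called 0 of 9, beside 3.1%. In 0 of the 9 did the genotypes stand apart without overlap, beside 4.7% of all genes (2.69% higher and 2.02% lower). The estimate was positive for Cdkn2b and Cdkn2c and negative for the other 7, beside 49.5% of all genes with a positive estimate. Since the genes were chosen with this contrast known, nothing further is read from these counts.

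Cdkn2b, the neighbour of Cdkn2a and like it an inhibitor of Cdk4 and Cdk6, overlapped between the genotypes. It had 0.835, 1.25, 0.811, 0.587 and 0.365 CPM in knockout libraries 1 to 5, against 0.955, 0.420, 0.171, 0.162 and 0.777 CPM in control libraries 1 to 5. Only knockout library 2 stood above all controls, and knockout library 5, the highest for Cdkn2a, was the lowest knockout library for Cdkn2b. Its log2 fold change of 0.63 had a standard error of 0.53 and a 95% interval of -0.53 to 1.79 (edgeR adjusted p = 0.595). The interval includes 0, and leaving out 1 library moved the estimate between 0.40 and 0.9999. The level rests on 14 to 52 reads in knockout and 6 to 36 in control libraries. Whether the difference of Cdkn2b is smaller than that of Cdkn2a was not tested.

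Cdkn2c, whose product p18Ink4c also blocks Cdk4 and Cdk6, was the member nearest to a shared rise. It had 85.0, 58.6, 74.8, 70.5 and 102 CPM in knockout libraries 1 to 5, and 41.9, 44.1, 64.9, 57.4 and 30.5 CPM in control libraries 1 to 5. Of the knockout libraries 4 of 5 stood above every control, while knockout library 2 lay within the control range. This was 1.64-fold (95% interval 1.19 to 2.25), or 0.71 in log2 with an SE of 0.21, and the edgeR adjusted p was 0.128. DESeq2 gave 0.0415 and limma-voom 0.0949. Cdkn2d (p19Ink4d) stood at 42.9 ± 14.3 CPM in knockout and 44.0 ± 11.8 CPM in control libraries, or -0.04 in log2 with an SE of 0.24. Its 95% interval was -0.57 to 0.49.

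The CIP/KIP genes stood lower on average in knockout libraries, with none past the threshold. Cdkn1a had 247, 355, 251, 155 and 139.6 CPM in knockout libraries 1 to 5, against 282, 325, 282, 270 and 528 CPM in control libraries 1 to 5. Of the knockout libraries 4 of 5 stood below every control and knockout library 2 lay within the control range, with knockout libraries 4 and 5 the lowest of all and control library 5 the highest. In log2 the difference was -0.56 with an SE of 0.27 (95% interval -1.16 to 0.05, edgeR adjusted p = 0.365), with -0.24 without knockout libraries 4 and 5 and -0.32 without control library 5.

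Cdkn1b, which encodes p27Kip1, the inhibitor of resting cells, was the steadier of these genes. It had 61.2, 60.6, 52.8, 43.8 and 54.9 CPM in knockout libraries 1 to 5, and 70.2, 73.7, 68.5, 60.9 and 81.0 CPM in control libraries 1 to 5. Only knockout library 1 stood above a control, which was control library 4. The ratio was 0.772-fold (95% interval 0.652 to 0.913), or -0.37 in log2 with an SE of 0.11, with an edgeR adjusted p of 0.133. Cdkn1c, the imprinted gene of p57Kip2, had 2.31 ± 0.892 CPM in knockout and 3.18 ± 1.20 CPM in control libraries and a log2 difference of -0.46 (SE 0.33), or -0.22 without control library 5, the highest at 5.08 CPM. The unstranded count of Cdkn1c was 46.3% of its stranded count, as against 89.6% for Cdkn1a and 94.9% to 101.2% for the other 8 genes.

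**Figure D2:**
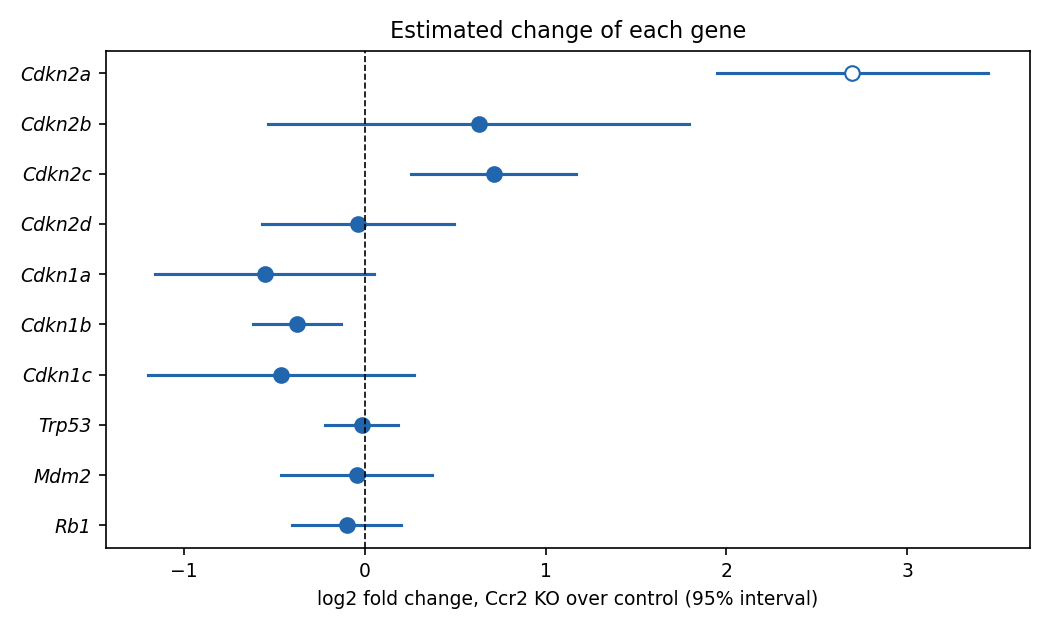
Log2 fold change of each gene, knockout over control, with its 95% interval from the edgeR fit over all genes. The open circle is Cdkn2a, which was chosen for its rise, at 2.70, while the estimates of the other 9 genes lie between -0.56 and 0.71.

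The estimates for Trp53, Mdm2 and Rb1 lay close to 0, and none passed the threshold. Trp53, which encodes p53, had 57.3, 45.8, 51.1, 57.6 and 47.0 CPM in knockout libraries 1 to 5, and 57.4, 54.1, 50.8, 47.6 and 52.3 CPM in control libraries 1 to 5. The groups overlapped over almost their whole range, with a log2 fold change of -0.02 (SE 0.09) and a 95% interval of -0.22 to 0.18. Transcript levels do not report the amount of p53 protein, which is largely set by its breakdown.

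Mdm2, the ubiquitin ligase that marks p53 for breakdown and is itself a p53 target, spread widely among knockout libraries. It had 79.3, 60.8, 47.8, 36.0 and 41.3 CPM in knockout libraries 1 to 5, against 49.4, 53.6, 56.4, 54.7 and 59.7 CPM in control libraries 1 to 5. Knockout libraries 1 and 2 stood above every control and knockout libraries 3, 4 and 5 below every control. The estimate was -0.05 in log2 with an SE of 0.19, and it turned to 0.21 without knockout libraries 4 and 5. Rb1 had 47.3 ± 8.72 CPM in knockout and 50.7 ± 6.41 CPM in control libraries, with a log2 fold change of -0.10 (SE 0.14).

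Per length, Cdkn1a was the most abundant of the 10 transcripts in both genotypes. Levels per length are CPM per kilobase of merged exons of GENCODE release M21, which may not be the authors' annotation. Cdkn1a stood at 64.6 ± 24.5 in knockout and 94.98 ± 30.6 in control libraries. In control libraries Cdkn2d (28.0), Cdkn2c (17.8), Cdkn1b (15.6), Trp53 (12.97), Mdm2 (10.8), Rb1 (8.43), Cdkn1c (1.56), Cdkn2a (0.738) and Cdkn2b (0.358) followed by mean level per length. Neighbours in that order overlapped in their control libraries except at the steps from Cdkn1a to Cdkn2d, Trp53 to Mdm2, Rb1 to Cdkn1c and Cdkn1c to Cdkn2a. In knockout libraries Cdkn2a stood at 4.797 ± 1.63 per length, between Rb1 (7.86) and Cdkn1c (1.13). Its lowest knockout library, at 2.66, was above the highest for Cdkn1c, at 1.67, and its highest, at 6.90, overlapped Rb1. There it stood below the INK4 transcripts Cdkn2c (29.1) and Cdkn2d (27.2) in knockout libraries.

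With edgeR 1 of the p53 targets passed the threshold, and other tools called more. Of 34 listed targets other than Cdkn1a and Mdm2, 33 were tested, and 1 rose and 0 fell past the threshold, beside 0.87% and 0.543% of all genes. The median log2 fold change of the 33 was 0.00020, beside -0.0034 over all genes tested, with 17 above 0 and 16 below. The gene that rose was Ephx1, the microsomal epoxide hydrolase, at 22.1, 28.2, 38.6, 25.9 and 28.6 CPM in knockout libraries 1 to 5 and 11.7, 12.3, 11.3, 17.6 and 13.02 CPM in control libraries 1 to 5. Every knockout library was above every control, with a log2 fold change of 1.12 (SE 0.17, edgeR adjusted p = 0.0126). The call ended with the close control pairs summed (adjusted p = 0.0786 at 1.12) and without knockout libraries 4 and 5 (0.0731 at 1.18). The xenobiotic receptors also control Ephx1, so it is not a target of p53 alone. DESeq2 called 4 of the 33 targets, 3 higher and 1 lower, beside 4.55% of all genes in either direction. The count with limma-voom was 3, 2 higher and 1 lower, beside 3.1%. In 3 of the 33, Ephx1, Tigar and Pmaip1, the genotypes did not overlap, beside 4.7% of all genes.

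Next by p were Tigar and Zmat3, which stood higher, and Pmaip1, which stood lower in knockout libraries. Tigar, a regulator of glycolysis, had 10.96 CPM on average in knockout and 7.72 CPM in control libraries (log2 fold change 0.51, SE 0.11, edgeR adjusted p = 0.0600). Zmat3, an RNA-binding protein, had a log2 difference of 0.46 (SE 0.12) and an adjusted p of 0.106. Pmaip1, which encodes the death-promoting protein Noxa, had 18.5 CPM in knockout and 42.3 CPM in control libraries, with a log2 fold change of -1.19 (SE 0.39). Its knockout libraries 4 and 5, at 7.29 and 9.03 CPM, were the lowest, as they were for Cdkn1a. Regulators of p53 such as Mdm4, Atm and Chek2 had 0 of 15 tested genes past the threshold, 2 at an unadjusted p under 0.05, 0 with DESeq2 and 0 with limma-voom, beside 1.41%, 15.3%, 4.55% and 3.1% of all genes.

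Genes that the inhibitors act on had mostly positive log2 fold changes, with none past the threshold. Control library 5 was the lowest of the 10 libraries for many of them, and the values without it stand beside each list. Of 15 kinases, cyclins and partners, 13 were above 0, beside 49.5% of all genes, with a median of 0.32. Control library 5 was lowest for 12 of the 15, and without it the median was 0.21. With edgeR, DESeq2 or limma-voom 0 passed. At an unadjusted p under 0.05 there were 2, each higher, or 1 without control library 5. Of all genes 15.3% had such a p in either direction and 8.05% were higher. Cdk1, the kinase of mitosis, had 70.9 CPM in knockout and 44.6 CPM in control libraries, with an edgeR adjusted p of 0.184. Cdkn3, a phosphatase, had 12.1 CPM in knockout and 7.79 CPM in control libraries, and Ccnb1, a mitotic cyclin, 42.4 CPM in knockout and 28.7 CPM in control libraries (adjusted p = 0.325 and 0.338). Of 14 Rb family, E2F and partner genes, 13 were above 0 with a median of 0.29, with 0 past the threshold by any of these tools. At an unadjusted p under 0.05 there were 4, all higher, beside 8.05% of all genes, or 2 without control library 5. Control library 5 was lowest for 7 of the 14, and without it the median was 0.25. The 4 genes were Tfdp1, E2f3, E2f6 and E2f1, with log2 fold changes of 0.27, 0.44, 0.26 and 0.35. All 20 replication genes that E2F factors drive were above 0, with a median of 0.46 beside -0.0034 over all genes. Control library 5 was the lowest library for all 20 of them. Without it 19 were above 0, with a median of 0.31, and Mki67, a proliferation marker, stood at -0.21. None of the 20 passed by any of these tools. At an unadjusted p under 0.05 there were 6, all higher, beside 8.05% of all genes, or 4 without control library 5. Mcm6, Cdt1 and Gins2 came first (edgeR adjusted p = 0.204, 0.248 and 0.252). Cdkn2c had its lowest level in control library 5, where Cdk1, at 23.0 CPM, and Cdkn2a, at 0.389 CPM, were also lowest. Without that library the log2 fold change of Cdkn2c was 0.60. Whether these levels are related was not tested.

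Among genes known to regulate the Cdkn2a locus, 1 of 27 fell and 0 rose with edgeR, beside 0.543% and 0.87% of all genes. DESeq2 called 1, beside 4.55%, and limma-voom 3, beside 3.1%, which were Jarid2, Kdm6a and Bmi1. Polycomb complexes hold this locus silent in dividing cells, and the list holds their subunits, the demethylases that oppose them and factors such as Ets1, Id1 and Dmtf1. Jarid2, a cofactor of the polycomb complex that methylates histone H3, had 34.3, 29.5, 25.6, 25.5 and 27.5 CPM in knockout libraries 1 to 5 and 43.9, 46.6, 46.7, 42.7 and 55.1 CPM in control libraries 1 to 5. Every knockout library was below every control, with a log2 fold change of -0.72 (SE 0.11, edgeR adjusted p = 0.0118). The call ended with the close control pairs summed (adjusted p = 0.108 at -0.76) and without knockout libraries 4 and 5 (0.106 at -0.64). Kdm6a, a demethylase, and Bmi1, a polycomb subunit known to silence Cdkn2a, had log2 fold changes of -0.43 and -0.39 (edgeR adjusted p = 0.111 and 0.148). The median of the list was -0.18, beside -0.0034 over all genes, with 8 above 0 and 19 below. Its other core subunit genes, among them Ezh2, Suz12 and Eed, did not pass.

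Among regulators of Cdkn1a and Cdkn2b, 1 of 17 tested genes rose and 0 fell with edgeR, beside 0.87% and 0.543% of all genes. It was Tgfbr2, the receptor of transforming growth factor beta, a signal that induces Cdkn2b and Cdkn1a in epithelial cells. It had 612, 565, 593, 685 and 772 CPM in knockout libraries 1 to 5, and 442, 435, 412, 456 and 440 CPM in control libraries 1 to 5. The groups did not overlap, with a log2 fold change of 0.56 (SE 0.10, edgeR adjusted p = 0.0214). The call ended without control library 1, 2, 3 or 4 (adjusted p up to 0.0672, at 0.54 to 0.58), with the close control pairs summed (0.171 at 0.56) and without knockout libraries 4 and 5 (0.0881 at 0.45). Skp2, which marks p27Kip1 for breakdown, and Smad7 had log2 fold changes of 0.37 and -0.40 and did not pass. The median of the list was -0.06.

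Of 21 senescence-associated genes tested, 0 passed with edgeR, 1 each with DESeq2 and limma-voom, and 3 had an unadjusted p under 0.05, all of them higher in knockout libraries. The shares over all genes in either direction were 1.41%, 4.55%, 3.1% and 15.3%. At that unadjusted p 8.05% of all genes were higher and 7.28% lower. Plau and Glb1 were among the 3. Plau, the urokinase protease, had 388 CPM in knockout and 227 CPM in control libraries (edgeR adjusted p = 0.103). Glb1, the lysosomal beta-galactosidase, had 119 CPM in knockout and 90.8 CPM in control libraries (edgeR adjusted p = 0.156). The median log2 fold change of the list was -0.39, with 9 above 0 and 12 below, and the lowest was -1.77 for the collagenase Mmp13. Without knockout libraries 4 and 5 the median turned to 0.058, and without control library 5 it was -0.19.

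**Figure D3:**
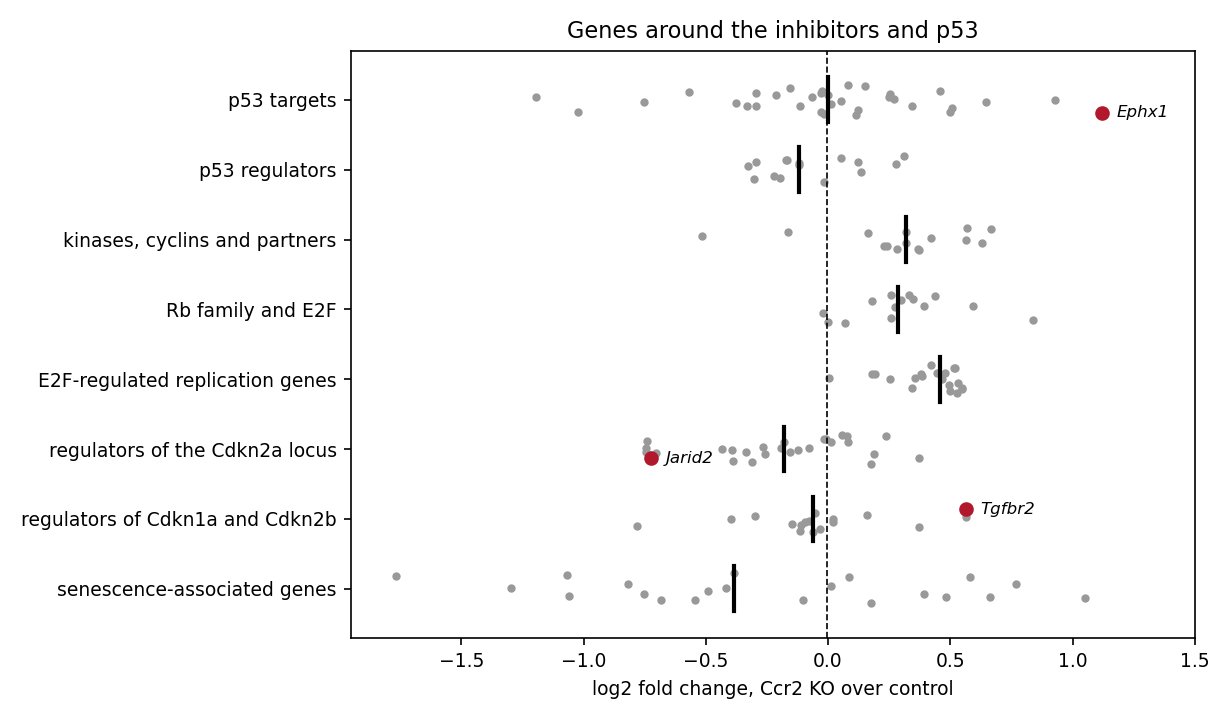
Log2 fold changes, knockout over control, of the tested genes in 8 lists around the inhibitors and p53, without the 10 members, with a point per gene, black bars for list medians and a dashed line for the median of all genes. The red points, Ephx1, Jarid2 and Tgfbr2, are the genes past an edgeR adjusted p of 0.05.

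The neighbours of Cdkn2a that could be tested did not pass the threshold. On chromosome 4 the nearest protein-coding genes are Mtap on the downstream side and Cdkn2b on the upstream side, as ordered in RefSeq GRCm38.p6. Mtap, a methionine salvage enzyme, had 30.5 ± 2.70 CPM in knockout and 27.2 ± 3.999 CPM in control libraries (SD, n = 5 each), with a log2 fold change of 0.16 (SE 0.11) and an edgeR adjusted p of 0.515. Ifne, Ifna1, Dmrta1 and Zfp352 further out had too few counts to be tested. The noncoding gene Gm12606, which the GENCODE annotation places next to Cdkn2a, had 20 reads over the knockout and 57 over the control libraries and was not tested either.

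The genes most like Cdkn2a across the 10 libraries were Wtip, Sgpp1, Bik, Kitl and Sept8. Their Pearson correlations with Cdkn2a in log2 CPM were 0.96, 0.95, 0.94, 0.94 and 0.94. The ranking was among 10879 tested genes averaging 2 CPM or more. Genes named as predicted genes, clones or pseudogenes, or without a symbol of their own, were left out of it. Spearman correlations ran from 0.82 for Bik and Sept8 to 0.98 for Sgpp1 and Kitl. Bik is a death-promoting member of the Bcl2 family, and Kitl is the ligand of the receptor Kit. These values are a description over 10 libraries that share the genotype split and the close control pairs. Over deviations from the genotype means the nearest genes were Zfp729a, Med8, Cdca7, Fam72a and Pole3, at 0.97, 0.96, 0.96, 0.96 and 0.95, none of which was among the first 5. Of the other members, Cdkn2c followed Cdkn2a most closely over the 10 libraries, at 0.84, and within genotypes at 0.62, while Cdkn2b stood at 0.24 and -0.59.

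**Figure D4:**
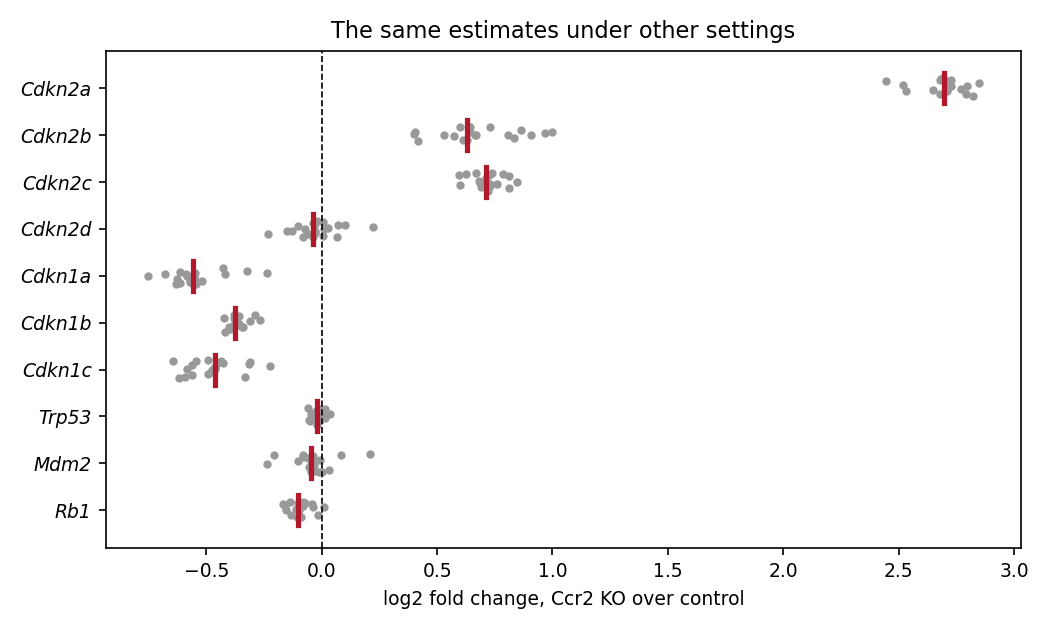
Log2 fold change of each gene, knockout over control, under 21 other analysis settings (grey points, 20 for Cdkn2b) and as reported (red bars). Cdkn2a stayed between 2.45 and 2.85, while Cdkn2d, Trp53, Mdm2 and Rb1 fell on both sides of 0.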

How the data were processed

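Read counts per gene were deposited as 1 file per library, which the authors made with STAR on GRCm39, per the submitters' processing notes. Neither its version nor the annotation is given in the sources used here. Libraries were directional, per the labels' protocols, and the reverse-strand column was used. The summary rows that name no gene were left out, and multimapping reads were listed as 0. Unmapped reads were 6.87% to 8.07%, ambiguous reads 1.84% to 2.10% and reads in no gene 3.64% to 5.68% per library. A combined table with 10 unnamed value columns was not used.

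Genes were tested with the quasi-likelihood F-test of edgeR 4.0.16 in R 4.3.3, with filterByExpr (minimum count 10), TMM scaling and Benjamini-Hochberg adjustment over all 14374 genes. The standard error is the log2 fold change divided by the square root of F, and 95% intervals use the t distribution with the test's degrees of freedom. CPM uses TMM-scaled library sizes. Alternatives included DESeq2 1.42.0, limma-voom with a quality weight for each library (limma 3.58.1) and each library left out. Of 55359 identifiers 52083 matched a symbol. The code was tested on simulated data. Members and lists were chosen with earlier results of these data known. Of each list every called gene and the 3 smallest p are named, except for items that are not reported here, and Gm12606, E2f1, Atm, Kdm6b, Mki67, Ezh2, Suz12, Eed and Mmp13 were named after their values were seen.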

Additional observations from a re-analysis of the deposited data

Results flagged for a closer look

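Control library 5 stood apart for Cdkn1a, at 528 CPM, while the other 4 control libraries had 270 to 325 CPM. Its gap to the next library took more of the group's range than a Dixon test allows for 5 values. Of 20 groups checked, 1 for each gene and genotype, this was the 1 found, and chance gives about 1 in 20. Without control library 5 the log2 fold change of Cdkn1a was -0.32.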

How the results depend on the processing

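The log2 fold change of Cdkn2a ran from 2.52 to 2.85 with 1 library left out, and over all 21 alternatives from 2.45 to 2.85. The number of genes past the threshold, 203 as reported, ran from 62 to 267 with 1 library left out, and was 799 with DESeq2, 446 with limma-voom, 444 at an adjusted p of 0.1, 50 without knockout libraries 4 and 5 and 29 with the close control pairs summed. It was 107 without knockout library 4, 92 without knockout library 5, and 77, 62, 101 and 77 without control library 1, 2, 3 or 4. Of the 9 other members 1 passed with DESeq2 and 0 under each of the other settings. Of the p53 targets, 1 as reported, 4 passed with DESeq2, 3 with limma-voom and 2 at an adjusted p of 0.1, and 0 passed without knockout libraries 4 and 5 or with the close control pairs summed. For the kinases, cyclins and partners the count was 0 in every setting run. The cause of these shifts was not tested.

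Whether replicate numbers in the titles pair the libraries is not stated, and correlations of expression cannot settle it. Deviations of same-numbered libraries from their genotype means correlated at 0.34, 0.08, -0.53, 0.18 and -0.22. With the replicate block 55 genes, 0 other members and 0 p53 targets passed. The edgeR adjusted p of Cdkn2a, again only a description, was then 0.0715 at a log2 fold change of 2.68. The block also ended the calls of Ephx1 (adjusted p = 0.0753 at 1.12), Jarid2 (0.0715 at -0.73) and Tgfbr2 (0.10005 at 0.55). Knockout library 1 was the 1 of 5 that correlated best with the control library of its own number. The direction of Cdkn2d, Trp53, Mdm2 and Rb1 differed from the reported one in 8, 4, 3 and 1 of 21 settings.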

Other observations

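The number of Cdkn2a reads for each Cdkn2b read varied widely within both genotypes. It was 5.32, 5.19, 3.84, 10.2 and 22.1 in knockout libraries 1 to 5, and 0.861, 2.24, 6.33, 6.71 and 0.500 in control libraries 1 to 5. Control libraries 3 and 4 exceeded knockout libraries 1, 2 and 3, so the groups overlapped in this ratio although they did not overlap in Cdkn2a. The control ratios rest on 6 to 36 Cdkn2b reads, and the counting error is correspondingly large.

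Kdm6b, the demethylase known to activate Cdkn2a in some settings, had 74.5 CPM in knockout and 125 CPM in control libraries, with a log2 fold change of -0.75 (SE 0.36) and an edgeR adjusted p of 0.349. Knockout libraries 1 to 5 had 116, 91.9, 92.9, 39.3 and 32.3 CPM and control libraries 1 to 5 had 113, 104, 103, 101 and 204 CPM. Without knockout libraries 4 and 5 the log2 fold change was -0.30, and without control library 5 it was -0.49. It was chosen after its values were seen.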
